A study of Mus musculus with 2 samples.

Results

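The nuclei described here are hepatocyte nuclei of 2 regenerating mouse livers, divided by whether they carried transcripts of Dendra2, a fluorescent protein of coral origin that turns from green to red under light and is used as a reporter in mice. A nucleus entered when it held at least 2000 UMIs (unique molecular identifiers, 1 per captured transcript) and when Cps1, the hepatocyte enzyme that feeds ammonia into the urea cycle, made up at least 0.5% of them. Of 10615 nuclei 4540 met this gate, 3774 of 5448 in the wild-type library and 766 of 5167 in the Cox10-/- library. Nuclei with 2 or more Dendra2 UMIs were taken as Dendra2-positive (703 wild-type and 400 Cox10-/-) and nuclei with 0 as Dendra2-negative (1803 and 158). The 3064 nuclei of these groups were compared within each library, and the remaining 1268 wild-type and 208 Cox10-/- nuclei, with 1 Dendra2 UMI, stood between them.

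Each library came from the liver of a mouse with a floxed Cox10 allele, which the labels call wild-type in one case and Cox10-/- in the other. The mice of the study received AAV8-GFP or AAV8-Cre, an adeno-associated virus that mainly infects hepatocytes, 4 weeks before a 70% partial hepatectomy. The treatment protocol puts dissection 4 days after surgery and the sample characteristics put it at 4 weeks. The labels give no age or sex, do not say which virus each animal received, which exon is floxed, or whether the mice carried a Dendra2 allele and which promoter or recombinase would drive it. With 1 library per genotype there were no replicates, so groups were not tested, and each 95% interval given in parentheses covers the error of counting and nothing else. The wild-type library held 17703804 UMIs and the Cox10-/- library 14476400, and 7 cell barcodes occurred in both, with 5 nuclei of these barcodes inside the gate.

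Hepatocytes carry out the synthetic and detoxifying work of the liver and differ along the lobule. Those near the portal vein make urea and glucose, and those around the central vein take up ammonia as glutamine and start bile acid synthesis. Cox10 makes heme O, from which the heme A of cytochrome c oxidase (respiratory complex IV) is formed. A reporter that is switched on by the same recombinase as a floxed gene can mark the cells in which recombination took place, whereas a reporter that is on in every cell marks none in particular. Which of these applies to Dendra2 here is not stated in the labels.

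Dendra2 transcripts were found in gated hepatocyte nuclei of both libraries and were sparse. In the wild-type library the level was 2.06 Dendra2 UMIs per 10000 UMIs (1.99 to 2.14, 2909 UMIs in 3774 nuclei), and in the Cox10-/- library 3.54 (3.36 to 3.73, 1458 UMIs in 766 nuclei). No gated nucleus held more than 6 UMIs of Dendra2 in the wild-type library, or more than 11 in the Cox10-/- library. Of 703 wild-type positive nuclei 528 had exactly 2 UMIs and 46 had 4 or more, and of 400 Cox10-/- positive nuclei 169 had exactly 2 and 124 had 4 or more. Just inside the Cps1 limit, at 0.5 to 0.6% of UMIs, 79 Cox10-/- nuclei held Dendra2 at 3.67 per 10000 (3.05 to 4.39). Just outside it, at 0.4 to 0.5%, 66 nuclei held it at 4.5 (3.66 to 5.48). These values chose the groups and are given as a description.

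**Figure D1:**
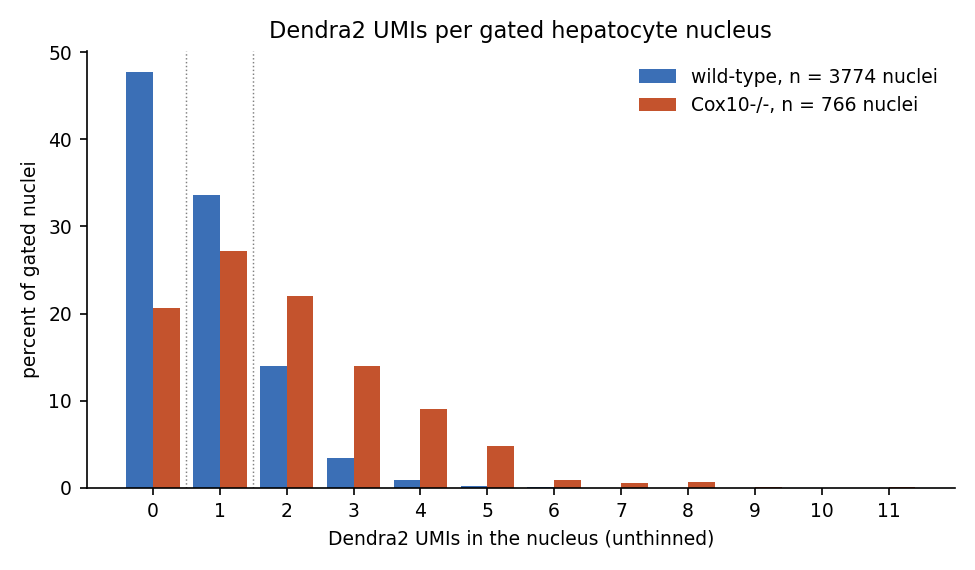
Percent of gated hepatocyte nuclei (vertical axis) by the number of unthinned Dendra2 UMIs in the nucleus (horizontal axis), in the wild-type library (blue, 3774 nuclei) and the Cox10-/- library (orange, 766 nuclei). Dotted lines separate nuclei with 0, 1, and 2 or more UMIs, and the largest values are 6 UMIs in the wild-type and 11 UMIs in the Cox10-/- library.

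Nuclei outside the gate held Dendra2 too. Wild-type nuclei of at least 2000 UMIs below the Cps1 limit had 2.22 per 10000 (2.02 to 2.45, 650 nuclei). Of these nuclei 571 had 0.2 to 0.5% of their UMIs from Cps1, and only 6, 9 and 4 had at least 1% from endothelial, stellate and cholangiocyte markers, so the wild-type library gave no sizeable group of other cells for reference. Cox10-/- nuclei below the Cps1 limit with at least 1% of UMIs from endothelial markers had 3.06 (2.79 to 3.34, 595 nuclei). Those with at least 1% from markers of stellate cells, liver pericytes that store vitamin A, had 2.38 (2.19 to 2.58, 703 nuclei), and those with at least 1% from cholangiocyte markers, of bile duct epithelium, had 2.39 (2.11 to 2.69, 336 nuclei). To remove the effect of depth each nucleus was thinned at random to 2000 UMIs. After thinning, 33.6% of wild-type gated nuclei (32.1 to 35.2) had at least 1 Dendra2 UMI, against 52.2% unthinned, and 34.3% of wild-type nuclei below the Cps1 limit did (30.7 to 38.1).

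In the Cox10-/- library the thinned share was 50.7% in gated nuclei (47.1 to 54.3, median depth 4751 UMIs), against 79.4% unthinned. It was 44.7% in endothelial-marker nuclei (40.7 to 48.8, median depth 2557) and 40.5% in stellate-marker nuclei (36.9 to 44.3, median depth 3055), against 53.8% and 53.3% unthinned. Among Cox10-/- nuclei of 2000 to 3041 UMIs the gated hepatocyte nuclei stood further above the other cells, at 4.63 per 10000 (3.98 to 5.36, 154 nuclei) against 3.22 in endothelial-marker (2.90 to 3.57, 469 nuclei) and 3.20 in stellate-marker nuclei (2.84 to 3.60, 347 nuclei). Thinned shares in this range were 63.0% (54.8 to 70.6), 47.3% (42.7 to 52.0) and 48.7% (43.3 to 54.1). Each rests on 1 random thinning, and another thinning of the same 154 gated nuclei gave 59.1% (50.9 to 66.9). Wild-type gated nuclei of the same depth range had 2.30 per 10000 (2.15 to 2.45). The variance of thinned Dendra2 UMIs divided by their mean, which is 1 under random sampling of 1 common level, was 1.05 in wild-type and 1.14 in Cox10-/- gated nuclei, with 1.08 in Cox10-/- endothelial-marker nuclei. With means of 0.421, 0.777 and 0.617 UMIs per nucleus this ratio responds little to differences in level between nuclei, and whether nuclei fall into groups of low and high Dendra2 was not tested.

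**Figure D2:**
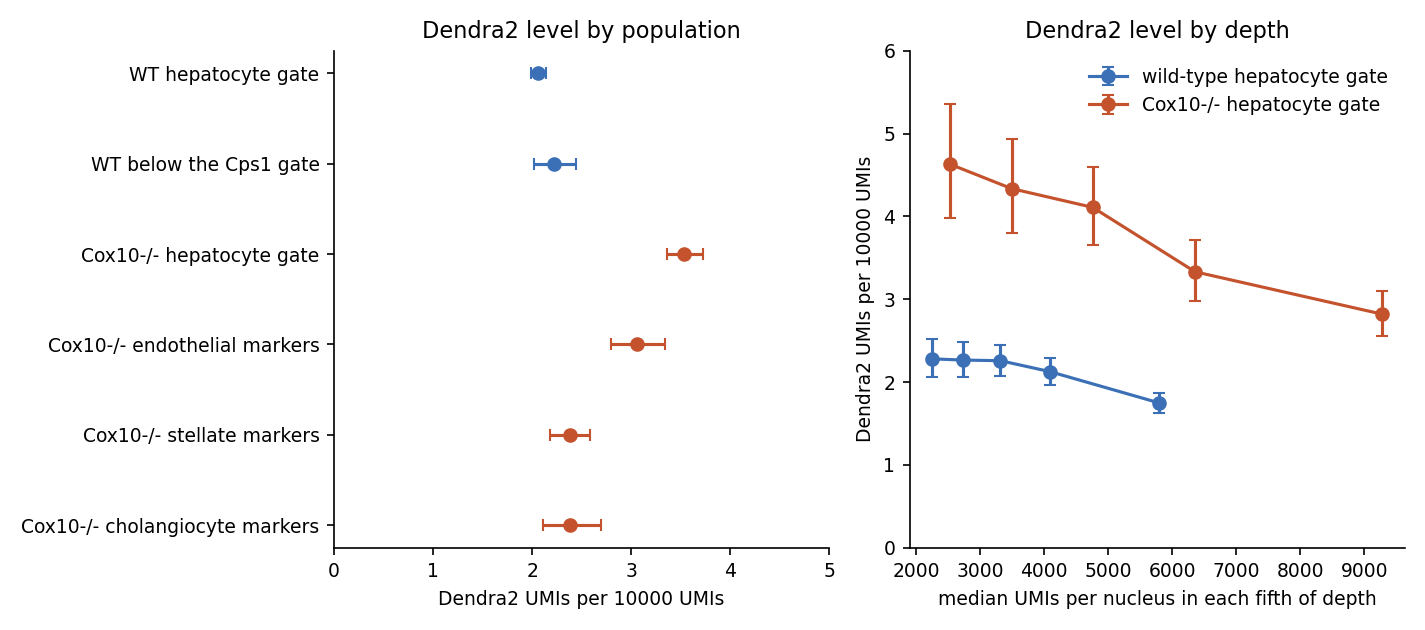
Left, Dendra2 UMIs per 10000 UMIs (horizontal axis) in nuclei of at least 2000 UMIs, for the hepatocyte gate and for nuclei below the Cps1 limit (wild-type blue, Cox10-/- orange), and right, the same level in gated nuclei against the median UMIs per nucleus of 5 equal depth groups. Points are summed levels and bars 95% Poisson intervals. The Cox10-/- gated nuclei stand at 3.54 and the other populations between 2.06 and 3.06, and in both libraries the deepest nuclei have the lowest level.

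Since the positive groups were chosen on a count, depth differed between them. The median was 3821 UMIs in wild-type positive and 3055 in negative nuclei, and 5456 against 3841.5 in Cox10-/- nuclei. From the shallowest to the deepest of 5 equal depth groups the share of nuclei with 2 or more Dendra2 UMIs went from 11.3% to 30.4% in the wild-type and from 31.8% to 69.3% in the Cox10-/- library. The level per 10000 UMIs went the other way, from 2.28 (2.06 to 2.52) to 1.75 (1.63 to 1.87) and from 4.63 to 2.82 (2.56 to 3.1). Mitochondrially encoded UMIs also moved with the groups. Their median share was 10.1% in wild-type positive and 11.9% in negative nuclei, and 3.59% against 3.81% in Cox10-/- nuclei. The thinned sums set out next hold the same number of UMIs per nucleus, but nuclei of different original depth remain unequally represented in them.

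The contrast was small for abundant transcripts and poorly resolved for most other genes. In the Cox10-/- library 6122 genes had at least 20 thinned UMIs over both groups, and the median log2 ratio of positive to negative nuclei was 0.01. A gene was counted as higher or lower when its ratio was at least 1.5-fold and the end of its interval nearest to 1 lay beyond 1.2-fold. By this rule 19 genes (0.31%) were higher and 26 (0.425%) lower, 45 in all (0.735%). In the wild-type library 19 of 9803 genes (0.194%) were higher and 29 (0.296%) lower, 48 in all (0.49%), with a median of 0.02. Among genes with at least 500 thinned UMIs none was counted in either library, and the whole interval lay within 1.5-fold for 309 of 319 such genes in the Cox10-/- and 1909 of 1930 in the wild-type library. Over all measured genes the whole interval lay within 1.5-fold for 907 in the Cox10-/- (14.8%) and 3432 in the wild-type library (35.0%). Among genes of 20 to 99 UMIs it did so for 0 of 3950 and 0 of 4206. For the remaining genes a 1.5-fold ratio was within counting error or exceeded. By point ratio alone, 1098 Cox10-/- genes (17.9%) and 1062 wild-type genes (10.8%) were at least 1.5-fold apart. Alb, which encodes serum albumin, showed how close abundant transcripts were, with ratios of 0.964 (0.931 to 0.998) in the Cox10-/- and 0.931 (0.914 to 0.947) in the wild-type library.

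**Figure D3:**
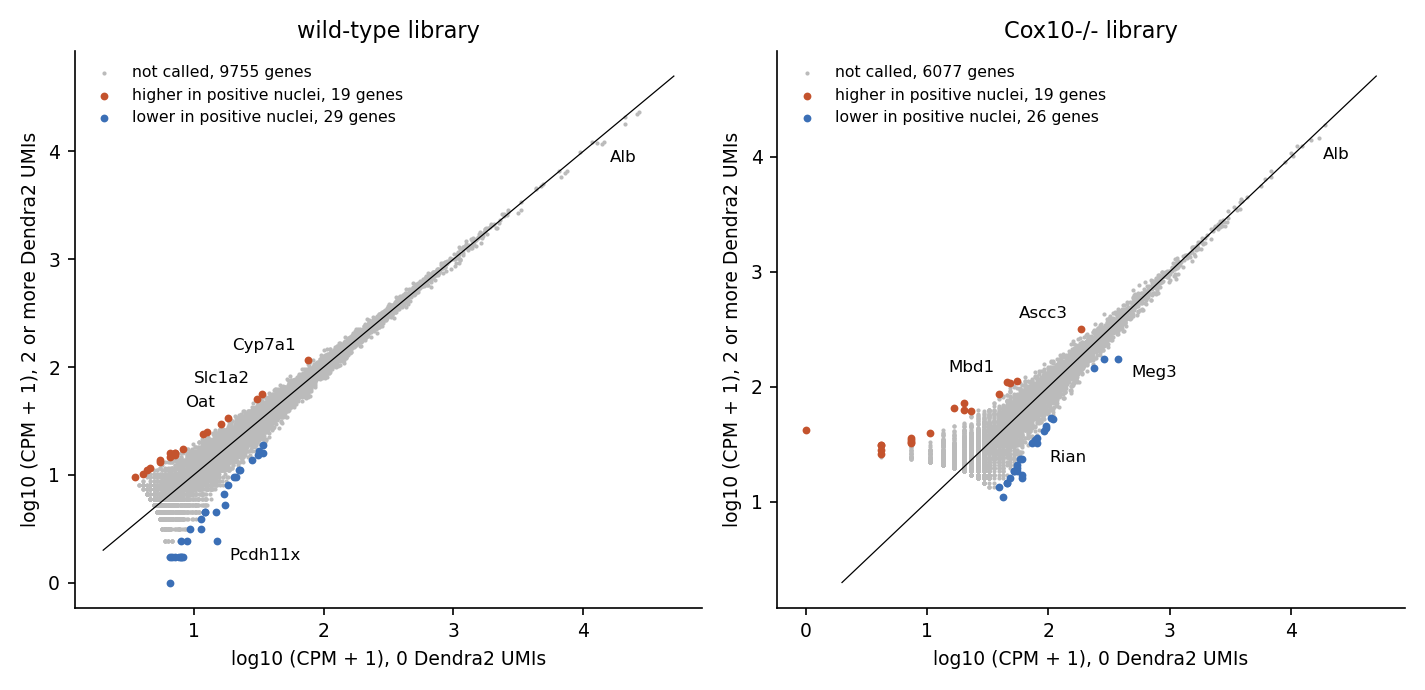
Level of each measured gene in Dendra2-positive nuclei (vertical axis) against Dendra2-negative nuclei (horizontal axis), both as log10 (CPM + 1) from thinned sums, in the wild-type library (left) and the Cox10-/- library (right), with the line of equal level. Genes past the rule are coloured, 19 higher and 29 lower in the wild-type and 19 higher and 26 lower in the Cox10-/- library, and they lie mainly among genes of low level.

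The genes counted depended on the random thinning. A repeat with another seed counted 39 Cox10-/- genes, of which 10 were among the 45, and 42 wild-type genes, of which 6 were among the 48. Named genes below are therefore given with their UMIs, and most of them should be read as genes of few counts. Of 26 Cox10-/- genes past the rule that are named or were assessed with them, 20 were not past it, or no longer measured, with the other seed, and 17 were not past it without thinning.

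Cox10, the targeted gene, did not separate the groups. In the Cox10-/- library it had 38 UMIs in positive, 14 in 1-UMI and 15 in negative nuclei, which is 47.5 CPM (UMIs per 1000000 of the thinned sum; 33.6 to 65.2), 33.7 CPM and 47.5 CPM (26.6 to 78.3). The ratio was 1.0 (0.538 to 1.96), so a loss of up to 1.86-fold or a gain of up to 1.96-fold was within counting error. Wild-type positive and negative nuclei had 47 and 132 UMIs of it and a ratio of 0.913 (0.640 to 1.28). Counts come from the 3' end of transcripts, and the labels do not name the floxed exon, so these values do not check recombination.

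Among the lower Cox10-/- genes were Meg3 and Rian, imprinted noncoding RNAs of the Dlk1-Dio3 domain that are transcribed from the maternal chromosome. Of 19 other settings Meg3 was past the rule in 17 and Rian in 15. Meg3 (mm10, chr12:109541001-109571726, plus strand) had 140 UMIs in 400 positive nuclei, 73 in 208 nuclei with 1 Dendra2 UMI and 119 in 158 negative nuclei. These were 175 CPM (147 to 207), 175 CPM (138 to 221) and 377 CPM (312 to 451), a positive to negative ratio of 0.465 (0.361 to 0.598). The negative nuclei were high, while nuclei with 1 and with 2 or more Dendra2 UMIs had the same level. The signal was concentrated in few nuclei, since 10.5% of positive (7.67 to 13.9, 42 nuclei) and 15.8% of negative nuclei (10.5 to 22.5, 25 nuclei) held any Meg3 UMI and 1 negative nucleus held 24 of the 119. Without the nucleus of each group with most Meg3 UMIs the ratio was 0.534 (0.407 to 0.704). In another setting Dendra2 was counted after thinning, with 1 or more UMIs as positive (388 Cox10-/- nuclei) and 0 as negative. Both the limit and the time of counting differ there, and nuclei with unthinned Dendra2 UMIs enter the negative group. In that setting the log2 ratio of Meg3 was -0.07 and the gene was not past the rule.

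Rian (mm10, chr12:109603940-109661716, plus strand), the neighbouring imprinted RNA, had 25, 17 and 25 UMIs, or 31.3, 40.9 and 79.1 CPM in positive, 1-UMI and negative nuclei. Its ratio was 0.395 (0.218 to 0.717). With 1 or more Dendra2 UMIs after thinning as positive its log2 ratio was -0.68, not past the rule. Meg3 and Rian were the only members of the 6-gene Dlk1-Dio3 list with enough UMIs to be measured. Both were counted as lower, where 26 of all 6122 measured genes (0.425%) were. Their median log2 ratio of -1.21 compares with 0.01 over all measured genes. In wild-type nuclei of both groups Meg3 had 1 UMI each and Rian 0, so the wild-type library gave no reference for this difference. Stellate and cholangiocyte markers were also lower in positive nuclei. Summed stellate markers stood at 269 CPM in positive (234 to 307, 10 of 10 with a UMI) and 399 CPM in negative Cox10-/- nuclei (332 to 475, 9 of 10, with Pdgfrb at 0), and summed cholangiocyte markers at 208 CPM (177 to 242) and 282 CPM (226 to 347), with Krt7, Epcam and Cftr at 0 in both. Summed endothelial markers stood at 136 CPM in positive and 114 CPM in negative nuclei, a ratio of 1.2 (0.814 to 1.80), and summed myeloid markers at 104 and 98.1 CPM, a ratio of 1.06 (0.692 to 1.65). The part of other cells in the difference in Meg3 and Rian was not tested. Without the 10% of nuclei with most markers of other cells the Dlk1-Dio3 median was -1.05.

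The other genes named among the 12 lowest of the Cox10-/- contrast had at most 32 UMIs in positive nuclei. Arhgap15, a GTPase-activating protein of leukocytes, had 8 UMIs in positive and 13 in negative nuclei, and without the nucleus of each group with most of its UMIs it was not past the rule (ratio 0.337, 0.0936 to 1.17). The same held for the syntrophin Sntg1 (18 and 19 UMIs, 0.689, 0.270 to 1.89). Pms1, a DNA mismatch repair protein, had 13 and 19 UMIs (0.270, 0.123 to 0.577), against 1.01 (0.764 to 1.32) in the wild-type library. Hsf2, a heat shock transcription factor, had 32 and 29 UMIs (0.436, 0.255 to 0.747), against 1.19 (0.934 to 1.5). Sf3b6, a splicing factor, Stx12, an endosomal syntaxin, and Rnft1, an ubiquitin ligase of the endoplasmic reticulum, had ratios of 0.325 (0.148 to 0.701), 0.349 (0.162 to 0.742) and 0.346 (0.156 to 0.756). Vwa5a and Fam204a were at 0.316 (0.135 to 0.723) and 0.310 (0.128 to 0.736).

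Among the genes higher in Cox10-/- positive nuclei was Rnf24, a RING finger protein, with 33 UMIs in positive, 12 in 1-UMI and 0 in negative nuclei. Against a floor of 3 counts set for the negative group it was 4.35-fold higher, a value that rests on this floor and is not a lower bound. Without thinning the log2 ratio of Rnf24 in the same nuclei was 0.47, not past the rule. With another seed its log2 ratio was 0.24, and in the wild-type library its ratio was 1.06 (0.755 to 1.46). Klhl7, a substrate adaptor of a cullin ubiquitin ligase, had 52, 8 and 5 UMIs (ratio 4.11, 1.65 to 13.2), against 0.967 (0.722 to 1.28) in the wild-type library. Mbd1, which binds methylated DNA, had 87, 34 and 14 UMIs, or 109, 81.7 and 44.3 CPM (ratio 2.45, 1.39 to 4.68), against 0.759 (0.593 to 0.964). Ascc3, a helicase subunit of a complex that rescues stalled ribosomes, was the gene of highest level among these, with 256, 137 and 58 UMIs, or 320, 329 and 184 CPM (ratio 1.74, 1.31 to 2.36), against 1.16 (1.03 to 1.29). With another seed Klhl7, Mbd1 and Ascc3 had log2 ratios of 1.39, 0.71 and 0.52 and were not past the rule.

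The remaining genes of the 12 highest were Amn1, the receptor phosphatase Ptprm, the Rab GTPase-activating protein Tbc1d13, the mitochondrial S-adenosylmethionine carrier Slc25a26, Tmem68, the INO80 subunit Nfrkb, the translation factor Denr and Zfp598, an ubiquitin ligase that senses collided ribosomes. Except for Amn1 and Slc25a26, with 6 negative UMIs each, they had 1 or 2 UMIs in negative nuclei. Amn1 stayed past the rule with the other seed, at a log2 ratio of 1.30 against 1.86, and its ratio in the wild-type library was 0.994 (0.794 to 1.24).

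Genes past the rule in the Cox10-/- contrast were compared with their values in the wild-type contrast. Of the 19 higher Cox10-/- genes 13 were also above a ratio of 1 in the wild-type library, and of the 23 lower genes measured there 13 were below 1. Over all 6092 genes measured in both libraries, 3097 (50.8%) were on the same side of 1 in both. Xrcc6, a DNA end-binding subunit of the Ku complex named after its values were seen, was the 1 gene past the rule in both contrasts. It had 10 positive and 12 negative UMIs in the Cox10-/- library (ratio 0.329, 0.127 to 0.831) and 14 and 77 in the wild-type library (0.466, 0.244 to 0.831). The difference between the contrasts, taken as the Cox10-/- minus the wild-type log2 ratio, was past the rule for 67 of 6092 genes (1.1%), 27 higher (0.443%) and 40 lower (0.657%). Among those named were Klhl7 at 2.03, Mbd1 at 1.68, Pms1 at -1.84 and Hsf2 at -1.43. Ndufs7, a core subunit of respiratory complex I, was at 1.72, from ratios of 2.84 (1.11 to 9.29) and 0.834 (0.514 to 1.31). Ddit3, the stress transcription factor CHOP, was at -1.84, from 0.527 (0.234 to 1.22) and 1.95 (1.02 to 3.69). Of 20 genes of the difference assessed, 14 were not past the rule, or no longer measured, with another seed, and 13 without thinning. With another seed Klhl7, Pms1 and Hsf2 were at 1.42, -1.01 and -0.91 and not past it, while Mbd1, Ndufs7 and Ddit3 stayed past it. Without thinning Ndufs7 was at 0.42, not past it.

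Wild-type positive nuclei had slightly higher levels of pericentral transcripts. Of 16 measured members of the pericentral list 15 were above a ratio of 1, with a median log2 ratio of 0.18 against 0.02 over all measured genes. Past the rule were 2 members, against 19 of all 9803 measured genes (0.194%) that were higher. The summed list stood at 2720 CPM in positive and 2348 CPM in negative nuclei, a ratio of 1.16 (1.11 to 1.2). The members past the rule, named after their values were seen, were Oat, ornithine aminotransferase (46 and 62 UMIs, 32.7 and 17.2 CPM, ratio 1.90, 1.27 to 2.83), and Slc1a2, a glutamate transporter (78 and 118 UMIs, 55.5 and 32.7 CPM, ratio 1.70, 1.26 to 2.28). Whether Oat and Slc1a2 stayed past the rule with another seed was not assessed. Glul, glutamine synthetase, was at 1.40 (1.08 to 1.82), and Cyp2e1, an abundant pericentral cytochrome P450, at 1.16 (1.09 to 1.22), from 1289 and 1113 CPM. In the Cox10-/- library 9 of 15 members were above 1. No member was past the rule there, where 45 of all 6122 measured genes (0.735%) were. The median log2 ratio was 0.14 against 0.01 over all measured genes, and the summed ratio 0.976 (0.910 to 1.05). The difference between the libraries over this list was not tested. There Cyp2e1 was at 0.855 (0.769 to 0.951) and Glul at 1.16 (0.844 to 1.60). The wild-type pericentral median stayed above 0 in every setting tried, between 0.05 and 0.22. The 0.05 came with 1 or more Dendra2 UMIs after thinning as positive. The Cox10-/- pericentral median did not, at -0.05 with negative nuclei weighted to the depth of positive ones. It was 0.01 with another seed and 0.29 with at least 1 Dendra2 UMI.

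Cyp7a1, which catalyses the rate-limiting step from cholesterol to bile acids, was the 1 member of 16 in the bile acid list past the rule in the wild-type library. Over all 9803 genes measured there, 19 (0.194%) were higher. A single member past the rule is too few to say that the list differs from that share. Cyp7a1 had 161 UMIs in positive and 269 in negative nuclei, or 115 and 74.6 CPM (ratio 1.54, 1.25 to 1.87). It was not past the rule in 11 of 19 settings, another seed among them (log2 0.51 against 0.62). In the Cox10-/- library it had 25 and 7 UMIs (1.41, 0.593 to 3.86). Periportal transcripts did not differ as a group, with summed ratios of 1.01 (0.989 to 1.03) in the wild-type and 1.02 (0.978 to 1.05) in the Cox10-/- library.

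**Figure D4:**
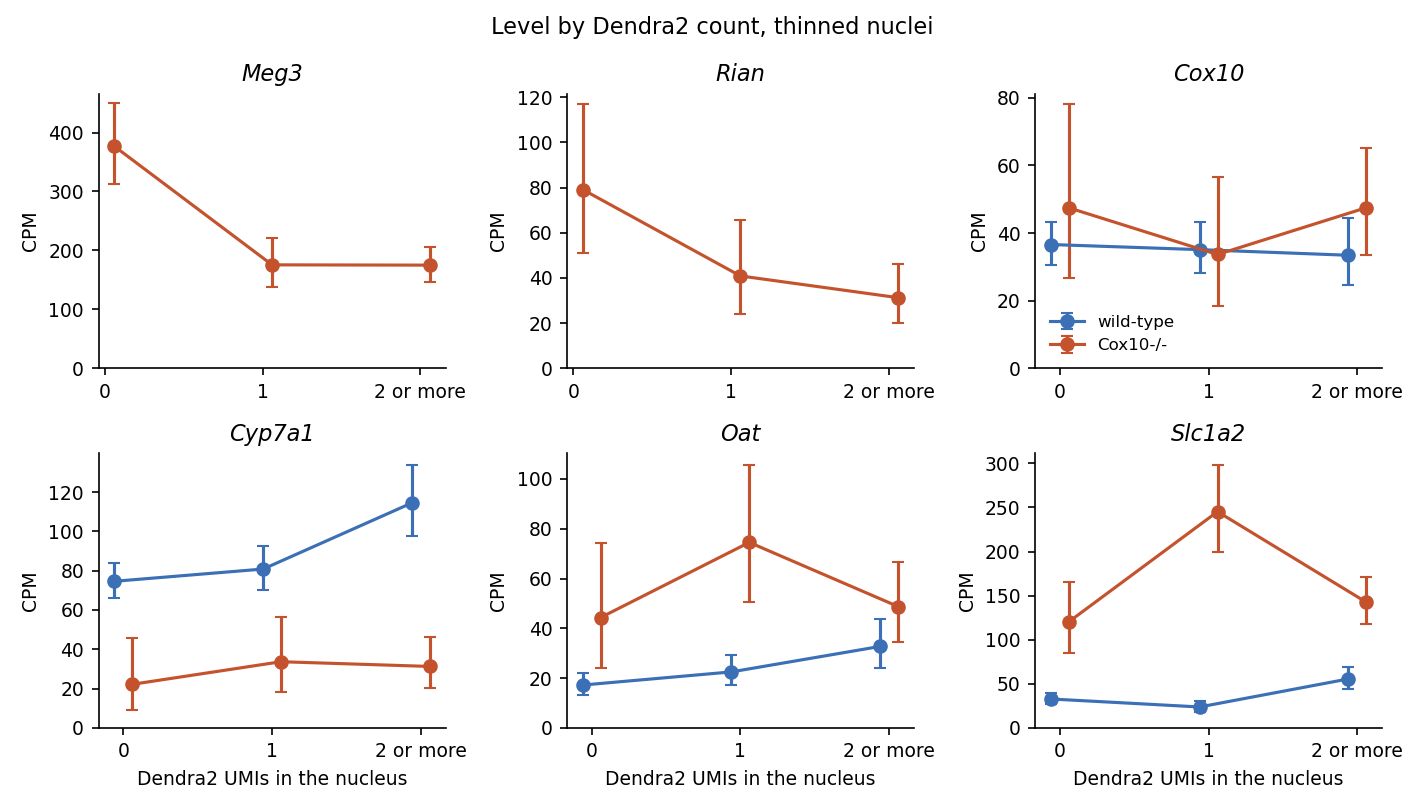
CPM from thinned sums (vertical axes, starting at 0) of 6 genes in nuclei with 0, 1, and 2 or more Dendra2 UMIs (horizontal axes), in the wild-type (blue) and Cox10-/- (orange) library, with 95% Poisson intervals; Meg3 and Rian had too few wild-type UMIs to be drawn. Meg3 stands at 377 CPM in Cox10-/- negative nuclei and at 175 CPM in both other groups, and Cyp7a1 stands at 74.6 CPM in wild-type negative and 115 CPM in positive nuclei.

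The other wild-type genes at the ends of the ranking had few counts. The 6 highest were Srp14, Fzd8, Pllp, Tomm34, Thumpd2 and Krr1, with 14 to 34 UMIs in positive nuclei and ratios from 2.08 for Tomm34, a cytosolic cochaperone of mitochondrial import (1.28 to 3.34), to 2.99 for Pllp, plasmolipin (1.28 to 7.08). Among the 6 lowest were Pcdh11x, Rccd1, Jagn1, Hdac2 and Isca2. Pcdh11x, an X-linked protocadherin, had 2 UMIs in 703 positive and 51 in 1803 negative nuclei (0.101, 0.0119 to 0.382). Hdac2, a histone deacetylase, had 6 and 59 (0.261, 0.0920 to 0.602).

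Respiratory chain transcripts, the genes nearest to the targeted enzyme, had summed ratios near 1 between positive and negative nuclei in the Cox10-/- library. Of 12 nuclear-encoded complex IV subunits 4 were above and 8 below a ratio of 1, with a summed ratio of 0.931 (0.820 to 1.06). Of 8 measured factors of complex IV assembly and heme A synthesis 5 were above 1, with a summed ratio of 0.981 (0.856 to 1.13). Complex I (34 subunits measured) was at 0.964 (0.867 to 1.07) and complexes II, III and V (27 measured) at 0.972 (0.888 to 1.07). None of these genes was past the rule, where 45 of all 6122 measured genes (0.735%) were. At that share few or no members of lists this size would be past it. In the wild-type library complex IV subunits were at 0.882 (0.815 to 0.954) with 10 of 12 below 1. Of 36 complex I subunits 1 was past the rule, Ndufa9 (22 and 110 UMIs, 0.513, 0.309 to 0.816), named after its values were seen. Over all 9803 genes measured there, 29 (0.296%) were lower.

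The 13 mitochondrially encoded transcripts, which reach a nuclear preparation with cytoplasm, went opposite ways in the libraries. In wild-type positive nuclei all 13 were below 1 (median log2 ratio -0.21, summed ratio 0.859, 0.854 to 0.864), from 0.811 for mt-Nd6 to 0.886 for mt-Nd4l. In Cox10-/- positive nuclei 11 of 13 were above 1 (median 0.14, summed ratio 1.07, 1.05 to 1.09). None was past the rule in either library, where 0.735% of all measured Cox10-/- and 0.49% of all measured wild-type genes were. Depth moved with these values, since the median mitochondrially encoded share went from 14.7% in the shallowest to 6.95% in the deepest wild-type group and from 5.77% to 2.24% in the Cox10-/- library. With negative nuclei weighted to the depth of positive ones the wild-type median was -0.04 and the Cox10-/- median 0.43. With at most 10% mitochondrially encoded UMIs per nucleus the Cox10-/- median was -0.15, so its direction depended on this limit. With 1 or more Dendra2 UMIs after thinning as positive the wild-type median was 0.03. Cytoplasmic ribosomal protein transcripts, listed as a check on cytoplasmic RNA, were at a summed ratio of 0.879 (0.834 to 0.927) in the wild-type and 0.899 (0.827 to 0.977) in the Cox10-/- library.

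Stress and handling lists were close to equal in the Cox10-/- contrast. Summed ratios were 1.05 (0.949 to 1.17) for the integrated stress response and mitokines, 1.0 (0.905 to 1.11) for p53 and cell cycle arrest, 0.979 (0.872 to 1.10) for NRF2 and glutathione, and 0.917 (0.800 to 1.05) for mitochondrial chaperones and proteases. Immediate early and heat shock transcripts were at 1.04 (0.977 to 1.12) in the Cox10-/- and 1.15 (1.10 to 1.21) in the wild-type library, where 10 of 14 were above 1. Within that list Egr1 was at 1.32 (1.12 to 1.55) and 1.21 (1.09 to 1.34), and Jun at 0.988 (0.838 to 1.17) and 1.2 (1.06 to 1.35). No member of these lists was past the rule in either library. Over all measured genes 0.735% were past it in the Cox10-/- and 0.49% in the wild-type library, so lists this size would have few or none.

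Metabolic programs were likewise near a ratio of 1 in the Cox10-/- library. Summed ratios were 1.03 (0.978 to 1.08) for the urea cycle, which excludes Cps1 as the gating gene, 0.957 (0.901 to 1.02) for glycolysis and lactate, 0.973 (0.934 to 1.01) for gluconeogenesis and 1.02 (0.973 to 1.06) for fatty acid oxidation and PPAR-alpha targets. Lipogenesis was at 1.06 (1.01 to 1.12), cholesterol synthesis at 0.997 (0.894 to 1.11), targets of the xenobiotic receptors CAR and PXR at 1.03 (0.978 to 1.08), and acute phase genes at 1.02 (0.972 to 1.07). Among wild-type nuclei fatty acid oxidation was at 1.05 (1.03 to 1.07), cholesterol synthesis at 1.08 (1.03 to 1.13) and bile acid synthesis and transport at 1.09 (1.06 to 1.12). Summed hepatocyte markers were slightly lower in positive nuclei, at 0.964 (0.939 to 0.990) in the Cox10-/- and 0.957 (0.944 to 0.969) in the wild-type library. Of 9 measured markers 2 were above 1 in the Cox10-/- and 3 in the wild-type library. Entry factors of adeno-associated virus were at 0.935 (0.804 to 1.09) in the Cox10-/- and 0.958 (0.880 to 1.04) in the wild-type library.

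**Figure D5:**
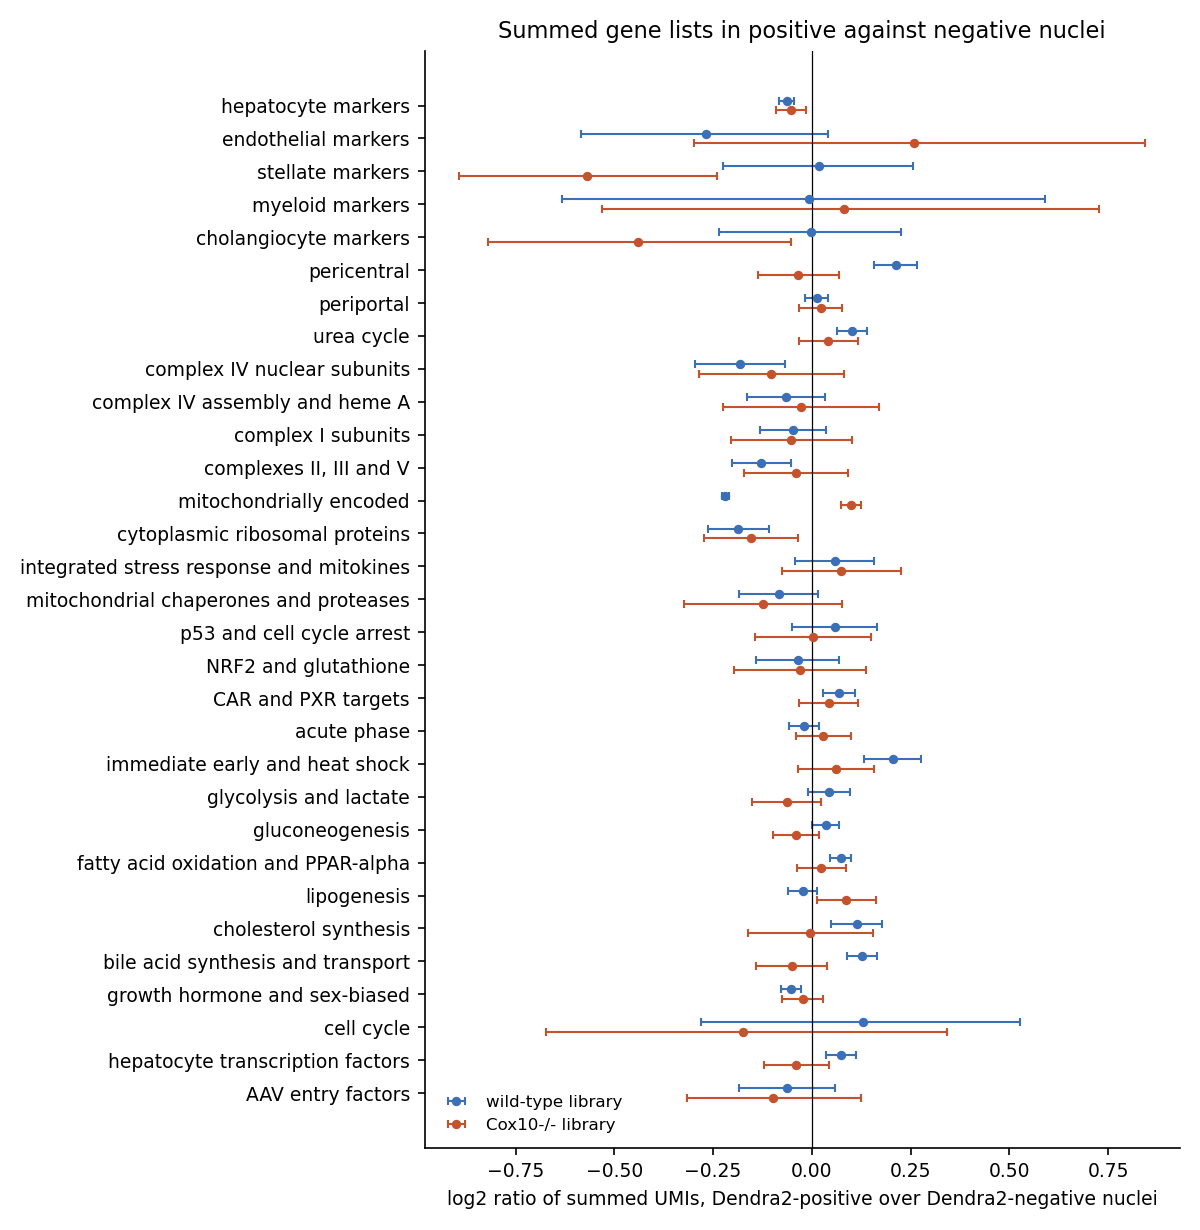
Log2 ratio of summed thinned UMIs in Dendra2-positive over Dendra2-negative nuclei (horizontal axis) for gene lists (vertical axis) in the wild-type (blue) and Cox10-/- (orange) library, with exact 95% counting intervals. Lists of hepatocyte function lie near 0, pericentral transcripts are at a ratio of 1.16 for wild-type and 0.976 for Cox10-/- nuclei, and mitochondrially encoded transcripts are at 0.859 and 1.07.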

How the data were processed

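Single-nucleus 3' RNA libraries of 1 wild-type and 1 Cox10-/- liver, with 7000 nuclei used per sample, were processed with Cell Ranger 7.0 on mm10, per the submitters' processing notes. The authors deposited 1 table of raw counts (UMIs for 32286 genes in each nucleus) without normalization. Nuclei in it had 601 to 3999 genes and under 20% mitochondrially encoded UMIs, so they had been filtered before deposit. That filter, the annotation and the use of intronic reads are not stated in the labels. All columns of nuclei were used (0 unused). Coordinates are from GENCODE vM21 (31424 of 32286 symbols matched), and Dendra2 has none there.

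Gated nuclei were thinned without replacement to 2000 UMIs (seed 1), summed per group and divided by the sum to give CPM. Ratios carry exact conditional binomial intervals, levels Poisson and shares Clopper-Pearson intervals at 95%. Log2 ratios used a prior of 0.5 UMI, and a count of 0 a floor of 3 counts over the group. UMIs of 1 nucleus are not independent, so the intervals are too narrow for genes concentrated in few nuclei. Dendra2 and Cps1, used for the choice of nuclei, were left out of the genes measured. Nuclei share 1 animal per library, so no test was applied. Doublets were scored by Scrublet in scanpy 1.11.5 (expected rate 5%, each library alone). It marked 14 nuclei (0.271%) of the Cox10-/- library and 0 of the wild-type library. These shares were below the expected rate, the reason was not tested, and no nuclei were removed as doublets in the main contrasts. Nuclei with the highest 5% of scores were left out in an alternative setting only.

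The text names Cox10, the 12 highest and 12 lowest Cox10-/- genes by the interval end nearest to 1, the 6 highest and 6 lowest of the wild-type contrast and of the difference, and from each list at most 4 genes of largest Cox10-/- log2 ratio in either direction, leaving out predicted and mitochondrially encoded genes. The groups of nuclei, the lists and the rules were chosen with earlier results of these data known. TMM factors came from edgeR 4.0.16 and size factors from DESeq2 1.42.0, for scaling alternatives only. Other alternatives changed the thinning, the gate, the definition of positive nuclei and the filters. Some genes that this rule selects are not reported here.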

Additional observations from a re-analysis of the deposited data

Results flagged for a closer look

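Dendra2 UMIs appeared in nuclei that the comparison did not use, all above the limit that a count of 0 allows. Wild-type nuclei of at least 2000 UMIs below the Cps1 limit had 2.22 per 10000 UMIs, and those under 2000 UMIs 2.68. In the Cox10-/- library the levels were 2.81 in all nuclei of at least 2000 UMIs below the Cps1 limit, 3.06 in those with at least 1% of UMIs from endothelial markers and 5.84 in nuclei under 2000 UMIs. The last value was above the 3.54 of the gated hepatocyte nuclei.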

How the results depend on the processing

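The share of gated nuclei called positive (52.2% Cox10-/-, 18.6% wild-type) followed its definition, at 79.4% and 52.2% with at least 1 UMI and 16.2% and 1.22% with at least 4. It was 56.9% and 22.7% from 3000 UMIs, 23.7% in wild-type nuclei with at most 10% mitochondrially encoded UMIs, and, chosen after seeing the data, 40.2% and 13.5% below and 64.2% and 23.7% from the median depth.

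Counts of genes past the rule were small in every setting. Cox10-/- higher genes (19) numbered 10 with depth weighting, 12 with Cps1 at 1% or more and 9 with at least 50 UMIs per gene. Lower genes (26) numbered 44, 14 and 11 in these settings, 54 without thinning, 62 without a filter on low counts and 16 below the median depth. Wild-type higher genes (19) numbered 49 with at least 4 Dendra2 UMIs, 7 with at least 50 UMIs per gene, 46 with no filter and 31 below the median depth, and lower genes (29) 19 with at least 4 Dendra2 UMIs, 19 with Cps1 at 1% or more, 15 with at most 10% mitochondrially encoded UMIs and 14 with at least 50 UMIs per gene. Differences between the contrasts (27 higher, 40 lower) numbered 72 and 102 with depth weighting, 48 and 21 with TMM, 45 and 21 with DESeq2 size factors, 9 and 16 with at least 50 UMIs and 56 and 95 without the filter. Higher differences numbered 93 with at least 4 Dendra2 UMIs, 42 without thinning and 44 with at most 10% mitochondrially encoded UMIs. Lower ones numbered 25 with 1 or more Dendra2 UMIs after thinning as positive. These counts are not shares, because the settings measured different numbers of genes. Against 6122 Cox10-/- genes in the main setting, 3781 were measured with Cps1 at 1% or more and 4110 below the median depth. With at least 50 UMIs per gene 3684 were measured, without thinning 8864 and without the filter 14134. Against 9803 wild-type genes, 6504 were measured with Cps1 at 1% or more and 7321 with at most 10% mitochondrially encoded UMIs. The cause of the changes was not tested.

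With at least 4 Dendra2 UMIs, which left 46 wild-type positive nuclei, Krr1 and Srp14 had 0 UMIs in positive nuclei, where the level of negative nuclei would give 0.995 and 0.51. Their log2 ratios of -5.36 and -4.43 there rest on the prior, their intervals reach ratios of 3.89 and 7.94, and they show no reversal. Of the named genes past the rule, 0 of 26 in the Cox10-/- library, 0 of 14 in the wild-type library and 0 of 20 in the difference stayed past it in every setting. Without the nucleus of each group with most UMIs of the gene, chosen after seeing the data, 22 of 26 and 13 of 14 stayed past it. No paired analysis was possible because each genotype is 1 library, so that the positive and negative nuclei of a library have no replicates to pair.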

Other observations

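Gene groups not described above were also close to equal. Hepatocyte transcription factors had summed ratios of positive to negative nuclei of 0.973 (0.919 to 1.03) in the Cox10-/- library, with 7 of 18 measured above 1, and 1.05 (1.03 to 1.08) in the wild-type library, with 14 of 20 above 1. Growth hormone and sex-biased genes were at 0.984 (0.949 to 1.02) and 0.964 (0.948 to 0.981), with 15 of 20 below 1 in the wild-type library. Cell cycle genes were near the limit of detection, with 2 of 30 measured in the Cox10-/- and 4 of 30 in the wild-type library, and summed levels of 138 and 155 CPM in Cox10-/- positive and negative nuclei.

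Setd5, a chromatin regulator next to the Rosa26 locus into which reporter transgenes are often placed, had 987 UMIs in positive and 484 in negative Cox10-/- nuclei, a ratio of 0.806 (0.722 to 0.900). In the wild-type library it had 1928 and 4478 UMIs and a ratio of 1.10 (1.05 to 1.17). The noncoding Gt(ROSA)26Sor, transcribed from that locus, had 44 and 76 UMIs in the wild-type library, a ratio of 1.48 (1.0 to 2.18). The list of transgene-associated features has 11 members, of which 4 were among the deposited genes. Cre, iCre, eGFP, EGFP, GFP, WPRE and tdTomato were not, so they could not be counted. In this list 1 of 2 measured Cox10-/- members was above a ratio of 1, at a log2 ratio of 1.25 with an interval reaching within 1.2-fold of 1. The other was Setd5, at -0.31. In the wild-type library 2 of 3 measured members were above 1. None of these was past the rule, where 0.735% of all measured Cox10-/- and 0.49% of all measured wild-type genes were. The labels do not say where Dendra2 was inserted.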
